A study of Homo sapiens with 6 samples.

Results

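Interferon-stimulated genes are described here as a set of 40 genes: antiviral effectors that interferon is known to induce, and the STAT and IRF factors that act in their induction. They were found by gene symbol in the deposited expression table, and all 40 had a row among its 20260 complete gene rows. MDA-MB-231, the cell studied, is an established human triple-negative breast cancer line with a mesenchymal-like character. The study asks what ABI2 does in these cells. ABI2 is an adaptor of the WAVE complex, which starts branched actin assembly.

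The ABI2 group had 3 libraries from MDA-MB-231 cells transfected with a plasmid carrying ABI2, and the control group had 3 libraries from cells of the same line transfected with the empty vector. Both groups had therefore received plasmid DNA, and no untransfected cells were analysed here. The time from transfection to RNA collection is not given in the sources used here. Whether the replicates came from separate cultures is not stated in the labels, and the spread behind each p-value may be technical. RNA came from all cells of a culture, and a smaller share of transfected or responding cells cannot be told apart from less RNA per cell. Library totals were 38.45 to 40.31 in units of 1e6 counts. ABI2 itself was at 222 ± 2.27 counts per 1e6 counts (CPM) in ABI2 libraries and 82.5 ± 1.2 CPM in control libraries (SD, n = 3 each). In deposited TPM, transcripts per 1e6 transcripts, it was at 134 ± 36.8 in ABI2 libraries and 16.7 ± 1.68 in control libraries, and the transcript length implied by counts and FPKM was 2402 to 3784 bases in ABI2 libraries and 9721 to 11019 bases in control libraries. All 6 of the marker genes listed for this line were at 1 TPM or more in every library. None of the 6 leukocyte markers was, and 3 of them had no counts, but CD14 was at 1.56 to 1.82 TPM in ABI2 libraries and 0.819 to 1.28 TPM in control libraries. Of 4 fibroblast markers only COL1A1 was at 1 TPM or more in every library, and 2 had no counts. Of 9 luminal or epithelial markers 6 were, with a summed level of 823 to 915 TPM in ABI2 libraries and 481 to 545 TPM in control libraries, mostly KRT8 and KRT18, while PGR and CDH1 had none. The part of these markers in the results below was not tested.

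Type I and type III interferons bind their receptors and activate the kinases JAK1 and TYK2, which phosphorylate STAT proteins such as STAT2. STAT2 and IRF9 are subunits of ISGF3, a complex that binds the interferon-stimulated response element (ISRE) in the promoters of its target genes. The products of those genes degrade viral RNA, block its translation or tag proteins with the ubiquitin-like ISG15. Many cancer cell lines keep a part of this set switched on with no virus present.

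The ISRE was searched for in promoters as GAAA, any 2 bases, then GAAA, on either strand, in windows of 300 bases with 250 bases before the transcription start and 50 after it. RefSeq windows (GRCh38.p14) were matched by symbol for 32 of the 40 members. At least 1 match was found for 21 of these 32 members, or 65.6%. By windows, 58.1% of the 43 windows of members held the motif, against 3.57% of all 34943 windows and 2.97% of the windows of tested genes. The gamma-activated site, searched as TTC, any 3 bases, then GAA, was in 27.9% of the members' windows and in 7.66% of all windows. The 250 bases before the start are shown for ISG20 and ISG15, the members with the highest log2 fold change, and for PARP14 and IFIT5, whose RNA fell, because the same kind of motif stands before genes that moved in opposite directions. Capitals mark the GAAA boxes, or TTTC where the motif lies on the other strand, and all 4 windows lie on the plus strand.
ISG20 (chr15:88638766-88639015): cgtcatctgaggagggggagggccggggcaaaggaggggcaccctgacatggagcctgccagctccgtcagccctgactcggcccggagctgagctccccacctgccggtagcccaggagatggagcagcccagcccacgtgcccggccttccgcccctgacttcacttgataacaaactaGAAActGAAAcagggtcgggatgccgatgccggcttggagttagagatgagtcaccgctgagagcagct
ISG15 (chr1:1013247-1013496): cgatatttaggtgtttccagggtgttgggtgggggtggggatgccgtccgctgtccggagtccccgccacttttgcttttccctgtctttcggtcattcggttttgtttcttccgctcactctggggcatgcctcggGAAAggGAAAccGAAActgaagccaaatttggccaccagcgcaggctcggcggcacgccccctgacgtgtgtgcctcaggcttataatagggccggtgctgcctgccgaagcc
PARP14 (chr3:122680589-122680838): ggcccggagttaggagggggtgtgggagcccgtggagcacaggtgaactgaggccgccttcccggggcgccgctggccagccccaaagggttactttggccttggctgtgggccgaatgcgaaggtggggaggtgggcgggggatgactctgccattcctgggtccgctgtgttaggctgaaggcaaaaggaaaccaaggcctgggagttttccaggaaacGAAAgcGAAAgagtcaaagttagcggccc
IFIT5 (chr10:89414318-89414567): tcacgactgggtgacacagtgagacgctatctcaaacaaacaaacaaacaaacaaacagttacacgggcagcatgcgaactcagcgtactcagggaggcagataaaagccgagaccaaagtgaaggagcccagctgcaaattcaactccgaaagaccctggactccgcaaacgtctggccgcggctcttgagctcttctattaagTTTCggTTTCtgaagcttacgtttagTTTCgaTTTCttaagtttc

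The motif began 69 bases before the start in ISG20 and 29 bases before it in PARP14. ISG15 had overlapping matches at 113 and 107 bases, and IFIT5 had matches at 45 and 19 bases. Among members with a window, the motif was present for 5 of the 8 whose RNA was higher in ABI2 cells and for 10 of the 11 whose RNA was lower. It was present for 4 of the 7 that were tested and did not pass, and for 2 of the 6 with too few counts to test. A match describes these letters only, and no binding was measured.

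Of the 40 genes, 24 passed the test in ABI2 cells, some in each direction. ISG15, ISG20, OASL and USP18 rose, and IFIT5, HERC5, PARP14 and GBP1 fell, also in a fit corrected for the GC content of the transcripts. Each of these changes was smaller in that fit, where IFIT5 and GBP1 were at log2 fold changes of -0.62 ± 0.14 and -0.86 ± 0.22. IFIT1, IFIT2, IFIT3 and PARP9 fell without that correction and did not pass with it. Of the 33 members with enough counts to test, 11 were higher in ABI2 cells, 13 were lower and 9 did not pass (edgeR quasi-likelihood test, Benjamini-Hochberg adjusted p below 0.05 over 13325 genes). The median log2 fold change of the 33 was -0.03, against -0.01 for all tested genes. Across all genes 35.1% were called higher and 38.0% lower, so neither count of members stands far from the background. A log2 fold change of 1 or more with a passed test was found for 4 members, against 1.85% of all genes, and one of -1 or less for 11 members, against 24.9% of all genes. In 13 members all 3 ABI2 libraries lay above all 3 control libraries in CPM, and in 13 they lay below. Those above take in OAS1 and IFI27 at low counts. Their lowest ABI2 values were 0.257 and 0.474 CPM, and their highest control values 0.25 and 0.452 CPM. Those below take in TRIM22, which only the control libraries brought past the filter. Over all genes these shares were 37.8% above and 40.1% below.

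**Figure D1:**
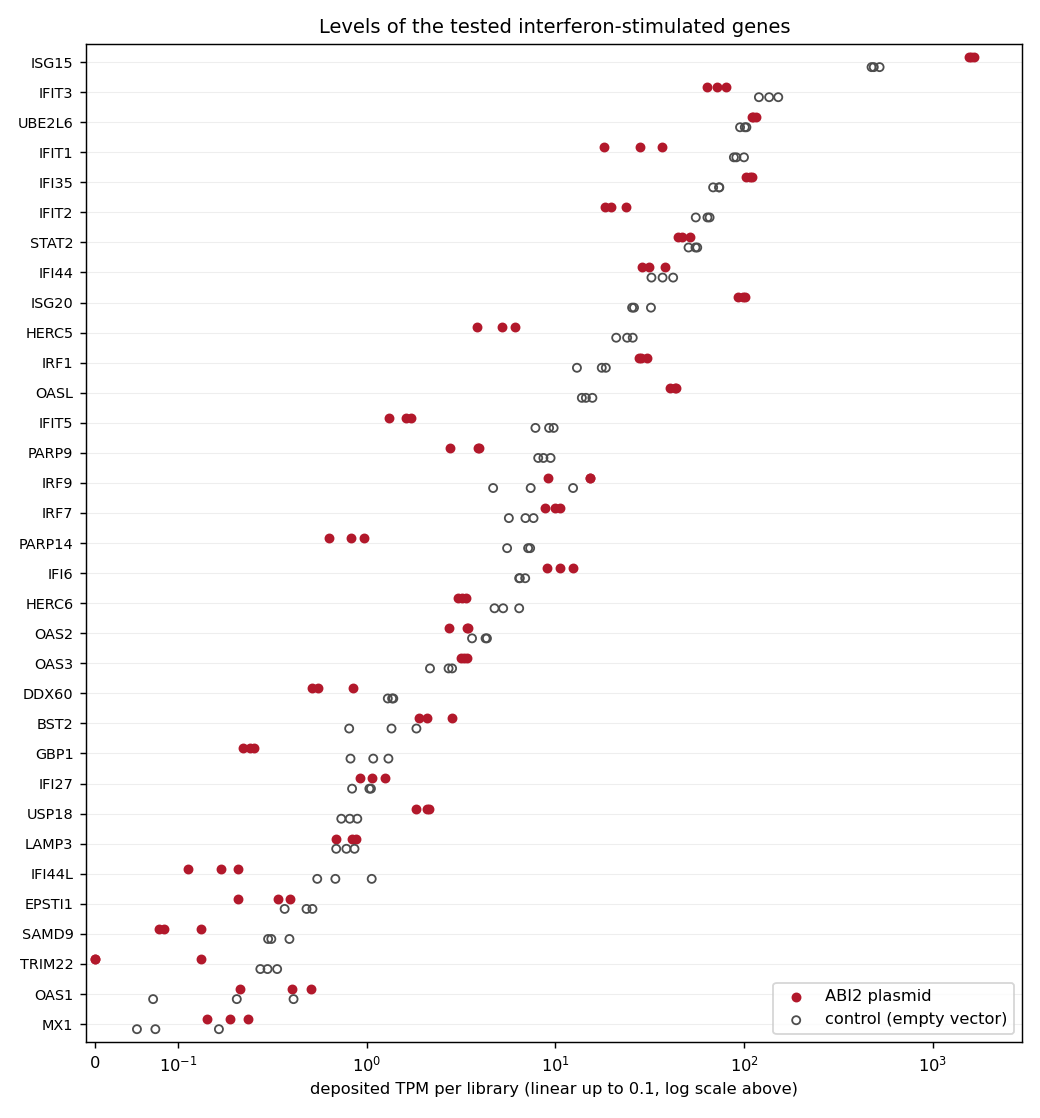
Deposited TPM of the 33 tested members in each library (x axis, linear up to 0.1 and log above), ordered by the mean of the control libraries, with ABI2 libraries as filled points above the open control points. ISG15 stands apart at 1560 to 1660 TPM in ABI2 libraries and 475 to 524 TPM in control libraries, and the groups do not overlap in most rows.

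Levels are given in TPM, which allows for transcript length. In ABI2 libraries 13 members averaged 10 TPM or more, 10 lay between 1 and 10 TPM, and 17 were below 1 TPM. In control libraries these numbers were 12, 12 and 16. The summed TPM of the 40 members was 2230, 2240 and 2300 in ABI2 libraries and 1220, 1190 and 1190 in control libraries. This sum was higher in every ABI2 library than in any control library. ISG15 held 69.8%, 71.4% and 72.2% of the sum in ABI2 libraries, against 40.0%, 39.9% and 44.2% in control libraries. Without ISG15 the sums were 675, 640 and 638 TPM in ABI2 libraries and 733, 716 and 662 TPM in control libraries, and the groups overlapped.

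ISG15, the ubiquitin-like modifier itself (chromosome 1, 1001138 to 1014541 in the deposited table, plus strand, GRCh38), was the most abundant member in both groups. It had 1560, 1600 and 1660 TPM in ABI2 libraries, against 488, 475 and 524 TPM in control libraries. Every ABI2 library was far above every control library, with a log2 fold change of 1.83 ± 0.05 (SE, n = 3 each; adjusted p = 1.23e-05). The enzymes that handle ISG15 did not move together, where 35.1% of all genes were higher and 38.0% lower. USP18, the protease that removes ISG15 and also restrains the type I interferon receptor, had 94, 109 and 106 counts in ABI2 libraries and 45, 41 and 36 in control libraries. Its groups did not overlap, and it rose by a log2 fold change of 1.43 ± 0.17 (adjusted p = 0.000191). HERC5, the main human ligase that attaches ISG15 to proteins (chromosome 4, 88457117 to 88506163, plus strand), went the other way. It had 6.08, 5.22 and 3.85 TPM in ABI2 libraries, against 24.0, 25.7 and 21.0 TPM in control libraries. All ABI2 libraries lay below all control libraries, and the log2 fold change was -2.08 ± 0.18 (adjusted p = 5.53e-05). HERC6, a related ligase that carries this role in the mouse, was lower too, with a log2 fold change of -0.66 ± 0.14 (adjusted p = 0.00367). In the decile of genes by transcript GC content that holds HERC5 and HERC6, 62.0% were lower. With GC correction HERC5 was at -1.18 ± 0.12, and HERC6 was at 0.00 ± 0.13 and did not pass. UBE2L6, the conjugating enzyme for ISG15, had 116, 111 and 110 TPM in ABI2 libraries and 103, 95.3 and 101 TPM in control libraries. Its groups were close but did not overlap, and its log2 fold change was 0.31 ± 0.05 (adjusted p = 0.0012). In its GC decile 70.0% of all genes were higher, and with GC correction UBE2L6 was at -0.15 ± 0.05.

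**Figure D2:**
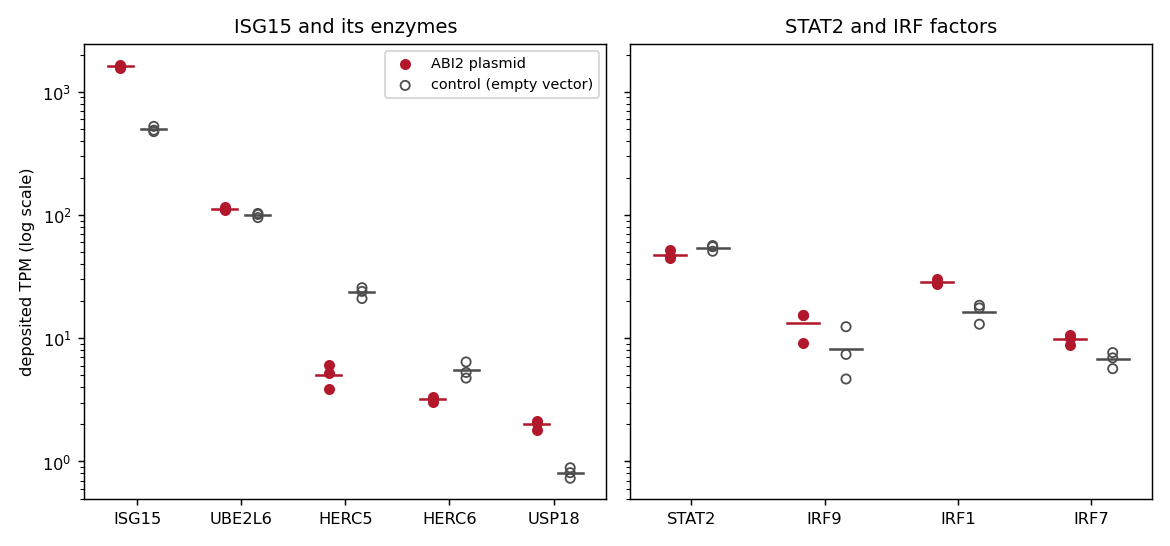
Deposited TPM (log scale) in each library for ISG15 and its enzymes (left) and for STAT2 and IRF factors (right), with ABI2 libraries as filled points left of the open control points and bars at group means. ISG15 and USP18 are higher and HERC5 and HERC6 lower in ABI2 libraries, IRF1 and IRF7 are higher, and STAT2 and IRF9 overlap between the groups.

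The OAS enzymes sense viral RNA duplexes and make oligoadenylates that switch on RNase L, whereas OASL has lost that activity and binds the RNA sensor RIG-I. OASL (chromosome 12, 121019111 to 121039242, minus strand) was the highest of the 4 and had 40.4, 43.2 and 43.7 TPM in ABI2 libraries, against 14.5, 13.8 and 15.7 TPM in control libraries. Its groups were well apart, and the log2 fold change was 1.71 ± 0.11 (adjusted p = 1.96e-05). OAS3 rose by 0.65 ± 0.11 on the log2 scale (adjusted p = 0.00133). OAS2, at 3.18 ± 0.398 TPM in ABI2 libraries and 4.07 ± 0.393 TPM in control libraries (SD, n = 3 each), did not pass, with a log2 fold change of -0.17 ± 0.14 (adjusted p = 0.305). OAS1 was close to the limit of detection, with 10, 11 and 19 counts in ABI2 libraries and 4, 6 and 10 in control libraries. Its log2 fold change of 1.08 ± 0.50 did not pass (adjusted p = 0.087). OAS1, OAS3 and OAS2 lie side by side on chromosome 12, with gaps of 5.13 and 5.14 kb, and OASL lies elsewhere on that chromosome.

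The IFIT proteins bind viral RNA that lacks the cap modifications of host mRNA and block its translation, and all 4 members of the family were lower in ABI2 cells, where 38.0% of all genes and 62.0% to 92.6% of the genes in their deciles by transcript GC content were lower. With GC correction IFIT5 still passed, at a smaller log2 fold change of -0.62 ± 0.14. IFIT1, IFIT2 and IFIT3 did not pass with it, at -0.21 ± 0.18, -0.14 ± 0.06 and 0.10 ± 0.07 on the log2 scale. IFIT3, which stabilises IFIT1, was the highest of them and had 80.0, 71.7 and 63.6 TPM in ABI2 libraries, against 136, 152 and 120 TPM in control libraries. Its groups did not overlap, and it fell by 0.78 ± 0.12 on the log2 scale (adjusted p = 0.000845). IFIT1, which binds the RNA cap, had 36.9, 28.2 and 18.2 TPM in ABI2 libraries and 100, 91.1 and 88.4 TPM in control libraries. The spread among ABI2 libraries was wide but all stayed below the controls, and the log2 fold change was -1.61 ± 0.24 (adjusted p = 0.00106). IFIT2 had 23.6, 19.8 and 18.3 TPM in ABI2 libraries and 64.0, 65.7 and 55.5 TPM in control libraries, with a log2 fold change of -1.45 ± 0.11 (adjusted p = 3.59e-05). IFIT5 had 1.62, 1.31 and 1.72 TPM in ABI2 libraries and 9.25, 9.78 and 7.83 TPM in control libraries. This was the widest separation in the family, with a log2 fold change of -2.39 ± 0.15 (adjusted p = 1.87e-05). The 4 genes lie within 1 cluster on chromosome 10, from 89283694 to 89421001 on GRCh38. IFIT1, IFIT2 and IFIT3 overlap LIPA on the opposite strand, and the strand setting of the counting is not given in the sources used here. LIPA itself had 121 ± 1.56 CPM in ABI2 libraries and 130 ± 5.96 CPM in control libraries (SD, n = 3 each), with a log2 fold change of -0.11 ± 0.05 (adjusted p = 0.0972).

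Among the small interferon-induced proteins, 4 rose, 1 fell and 4 of 9 tested did not pass, against 35.1% of all genes higher and 38.0% lower. In the GC deciles of those that rose, 59.8% to 70.0% of all genes were higher. ISG20, an exonuclease that acts on viral RNA (chromosome 15, 88636153 to 88656483, plus strand), had 92.8, 101 and 98.8 TPM in ABI2 libraries, against 32.1, 26.1 and 25.5 TPM in control libraries. The groups were far apart, and its log2 fold change of 1.89 ± 0.07 was the highest among the members (adjusted p = 1.23e-05). IFI35, a binding partner of NMI, was the most abundant of this group and had 108, 102 and 110 TPM in ABI2 libraries and 73.8, 68.6 and 74.0 TPM in control libraries. Its groups did not overlap, and it rose by 0.70 ± 0.06 on the log2 scale (adjusted p = 4.25e-05). IFI6, a membrane protein with antiviral activity against flaviviruses, rose by 0.83 ± 0.15 (adjusted p = 0.00172). BST2, the tetherin that holds budding virions at the cell surface, had 52, 47 and 69 counts in ABI2 libraries and 45, 20 and 32 in control libraries. Its adjusted p was 0.0385, and the call was lost when any library other than control replicate 1 was left out, with adjusted p between 0.0201 and 0.117 over the 6 fits.

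IFI44 and IFI44L are neighbours on chromosome 1, with a gap of 3.69 kb and transcript GC contents of 39.1% and 37.8%, yet their values were unlike. IFI44L had 30, 17 and 24 counts in ABI2 libraries and 76, 111 and 92 in control libraries, and fell by 1.88 ± 0.27 on the log2 scale (adjusted p = 0.000554). IFI44 had 37.9, 31.3 and 28.9 TPM in ABI2 libraries and 37.0, 42.1 and 32.3 TPM in control libraries. Its groups overlapped, and its log2 fold change was -0.03 ± 0.12 (adjusted p = 0.838). The difference between these neighbours was not tested. IFI27, EPSTI1 and LAMP3 did not pass, with log2 fold changes of 0.37 ± 0.27, -0.34 ± 0.33 and 0.18 ± 0.18.

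PARP9 and PARP14, ADP-ribosyltransferase family members, were both lower in ABI2 cells, where 38.0% of all genes and 77.2% of their GC decile were lower. PARP14 (chromosome 3, 122680618 to 122730840, plus strand) had 0.826, 0.963 and 0.633 TPM in ABI2 libraries, against 7.16, 7.34 and 5.54 TPM in control libraries. No other member with counts in every library was so far reduced, and the log2 fold change was -2.91 ± 0.19 (adjusted p = 2.13e-05). PARP9 had 3.90, 3.92 and 2.77 TPM in ABI2 libraries and 9.42, 8.63 and 8.10 TPM in control libraries, a log2 fold change of -1.15 ± 0.16 (adjusted p = 0.000441). PARP9 overlaps its partner DTX3L, a ubiquitin ligase gene on the other strand, which was at 15.0 ± 1.29 CPM in ABI2 libraries and 34.7 ± 1.77 CPM in control libraries.

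The remaining effectors were weakly expressed. GBP1, a large GTPase that coats vacuoles of pathogens, had 19, 18 and 16 counts in ABI2 libraries and 94, 79 and 57 in control libraries. Its groups did not overlap, with a log2 fold change of -2.01 ± 0.24 (adjusted p = 0.000251). DDX60, an RNA helicase, had 100, 59 and 58 counts in ABI2 libraries and 172, 186 and 140 in control libraries, a log2 fold change of -1.10 ± 0.24 (adjusted p = 0.0044). SAMD9, a restriction factor for poxviruses, had 14, 22 and 13 counts in ABI2 libraries and 64, 51 and 47 in control libraries, a log2 fold change of -1.62 ± 0.28 (adjusted p = 0.00143). All of these were lower in every ABI2 library than in any control library, as were 40.1% of all genes. TRIM22, a ubiquitin ligase that restricts viral transcription, had 0, 0 and 4 counts in ABI2 libraries and 24, 20 and 21 in control libraries. It passed the filter only through the control libraries, so no fold change or p is given for it, and its place among the 13 lower members supports nothing. TRIM22 overlaps TRIM5 on the opposite strand and OR56B1 on its own strand.

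MX1, a GTPase that traps viral nucleocapsids and is often used as a marker of interferon response, was barely detected. It had 12, 20 and 16 counts in ABI2 libraries and 6, 14 and 4 in control libraries, so the groups overlapped. Its log2 fold change of 1.08 ± 0.51 did not pass (adjusted p = 0.0915). MX1 reached the filter level of 0.252 CPM in all 3 ABI2 libraries but in only 1 control library, replicate 2. Without that library MX1 came past the filter only through the ABI2 libraries. That fit therefore supports nothing, and its values are not given. OAS1 reached this level in 2 ABI2 libraries and 1 control library. The 7 members that could not be tested were MX2, XAF1, RSAD2, CMPK2, SAMD9L, CXCL10 and CXCL11. Their highest count in any library was 10 among ABI2 libraries and 32 among control libraries, in SAMD9L, and CMPK2 had no counts. RSAD2, which encodes the radical enzyme viperin, and the chemokines CXCL10 and CXCL11, which attract T cells, are common readouts of an interferon response. CXCL10 had 4, 5 and 0 counts in ABI2 libraries and 0, 8 and 2 in control libraries. RSAD2 had 0, 2 and 6 counts in ABI2 libraries and 0, 2 and 0 in control libraries. No difference was detectable at this depth for either.

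Of the 4 member factors, 2 were higher, none was lower and 2 did not pass, against 35.1% of all genes higher and 38.0% lower. STAT2, the ISGF3 subunit that carries the activation domain, was the highest of the member factors at 44.5, 46.7 and 51.6 TPM in ABI2 libraries and 56.5, 50.8 and 55.3 TPM in control libraries. Its groups overlapped, and it did not pass, with a log2 fold change of -0.06 ± 0.07 (adjusted p = 0.482). IRF1, a factor that can act without ISGF3, had 27.8, 28.3 and 30.5 TPM in ABI2 libraries and 18.5, 17.6 and 13.0 TPM in control libraries. It rose by 0.76 ± 0.08 on the log2 scale (adjusted p = 0.000135). IRF7, the amplifier of interferon alpha genes, rose by 0.67 ± 0.14 (adjusted p = 0.00385). IRF9, the DNA-binding subunit of ISGF3, was uneven, with 357, 202 and 508 counts in ABI2 libraries and 403, 180 and 101 in control libraries. It overlaps AL136295.5 on the same strand, and its log2 fold change of 0.75 ± 0.55 did not pass (adjusted p = 0.258). Without control replicate 1 it did, at 1.42 (adjusted p between 0.038 and 0.606 over the 6 fits that left out a library).

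The direction of the members followed the GC content of their transcripts. The 11 members that were higher in ABI2 cells had transcript GC contents of 51.4% to 66.8%, with a median of 56.2%. The 13 lower members had 36.0% to 45.5%, with a median of 41.8%. Divided at 50% GC, a value chosen after these data were seen, 11 of the 16 GC-rich members were higher and 0 lower, and 0 of the 17 GC-poor members were higher and 13 lower. The same held for the transcriptome at large. Of all genes with at least 50% GC, 64.2% were higher and 4.79% lower in ABI2 cells, and of those below it 6.77% were higher and 70.4% lower. With all genes in deciles of GC content, the lowest decile had a median log2 fold change of -1.84, and the highest decile had 0.63. Its part in the split of the members was not tested beyond the GC-corrected fit.

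**Figure D3:**
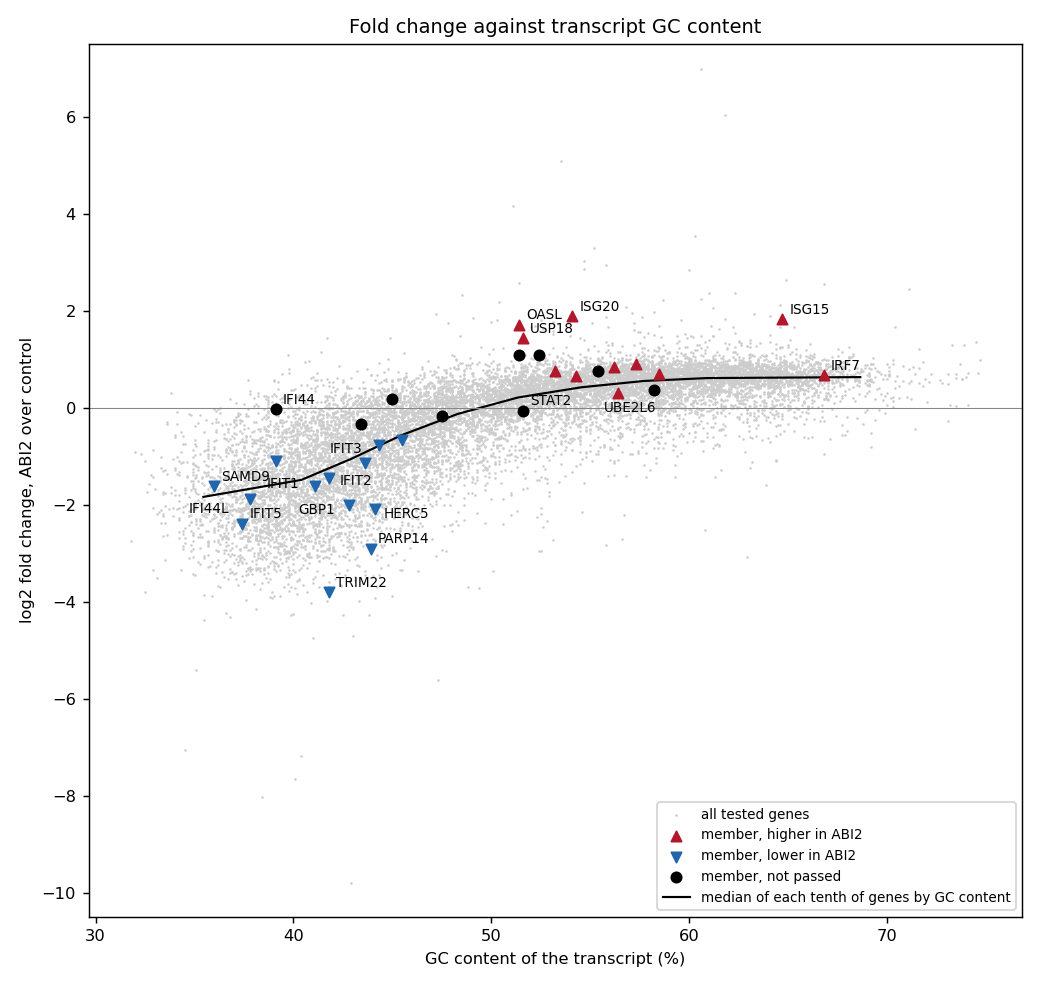
Log2 fold change of ABI2 over control (y axis) against the GC content of the transcript (x axis, percent) for all tested genes (grey) and for members that were higher (triangles up), lower (triangles down) or did not pass (circles), with a line through the medians of deciles of genes by GC. Members called higher lie at 51.4% GC or more and members called lower at 45.5% or less, and ISG15, ISG20, OASL and USP18 lie above the line while PARP14 and HERC5 lie below it.

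Set against the genes of their own GC decile, some members stood near its edge and others in its middle. ISG20 had 0.375% of the genes of its decile above it, ISG15 0.45%, OASL 0.526% and USP18 0.826%. At the other edge PARP14 had 3.23% of its decile below it and HERC5 5.48%. GBP1 and IFIT5, which also fell with GC correction, stood further in, with 82.0% and 73.9% of their deciles above them. Of all genes in those deciles, 77.2% and 92.6% were lower. IFI44, which did not pass, had 2.55% of its decile above it, and the median log2 fold change of that decile was -1.84. IFIT1, IFIT3, HERC6 and IFI44L were in the middle, with 45.5%, 41.4%, 46.6% and 48.5% of their deciles below them.

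In a fit with each library's GC trend removed, 28.6% of all genes were higher and 22.6% lower, and 9 members were higher, 7 lower and 17 did not pass. OAS3, OASL, ISG15, USP18, ISG20, IFI35 and IRF1 were higher in both fits, and IFIT5, GBP1, HERC5 and PARP14 were lower in both. TRIM22, which only the control libraries brought past the filter, makes up the number. After correction ISG20 had a log2 fold change of 1.53 ± 0.06 (adjusted p = 3.39e-05), ISG15 1.24 ± 0.04 (adjusted p = 3.39e-05) and PARP14 -1.94 ± 0.15 (adjusted p = 0.00012). IFI6, BST2 and IRF7 no longer passed, nor did IFIT1, IFIT2, IFIT3, HERC6, IFI44L, DDX60, SAMD9 and PARP9. IFI44 became higher, at 1.61 ± 0.07 (adjusted p = 3.64e-05), as did LAMP3, at 0.91 ± 0.17 (adjusted p = 0.00386). UBE2L6 changed sides, to -0.15 ± 0.05 (adjusted p = 0.0408), and STAT2 became lower, at -0.23 ± 0.07 (adjusted p = 0.0271). Such a correction also removes any true change that goes with GC content, so neither fit gives the size free of the other.

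**Figure D4:**
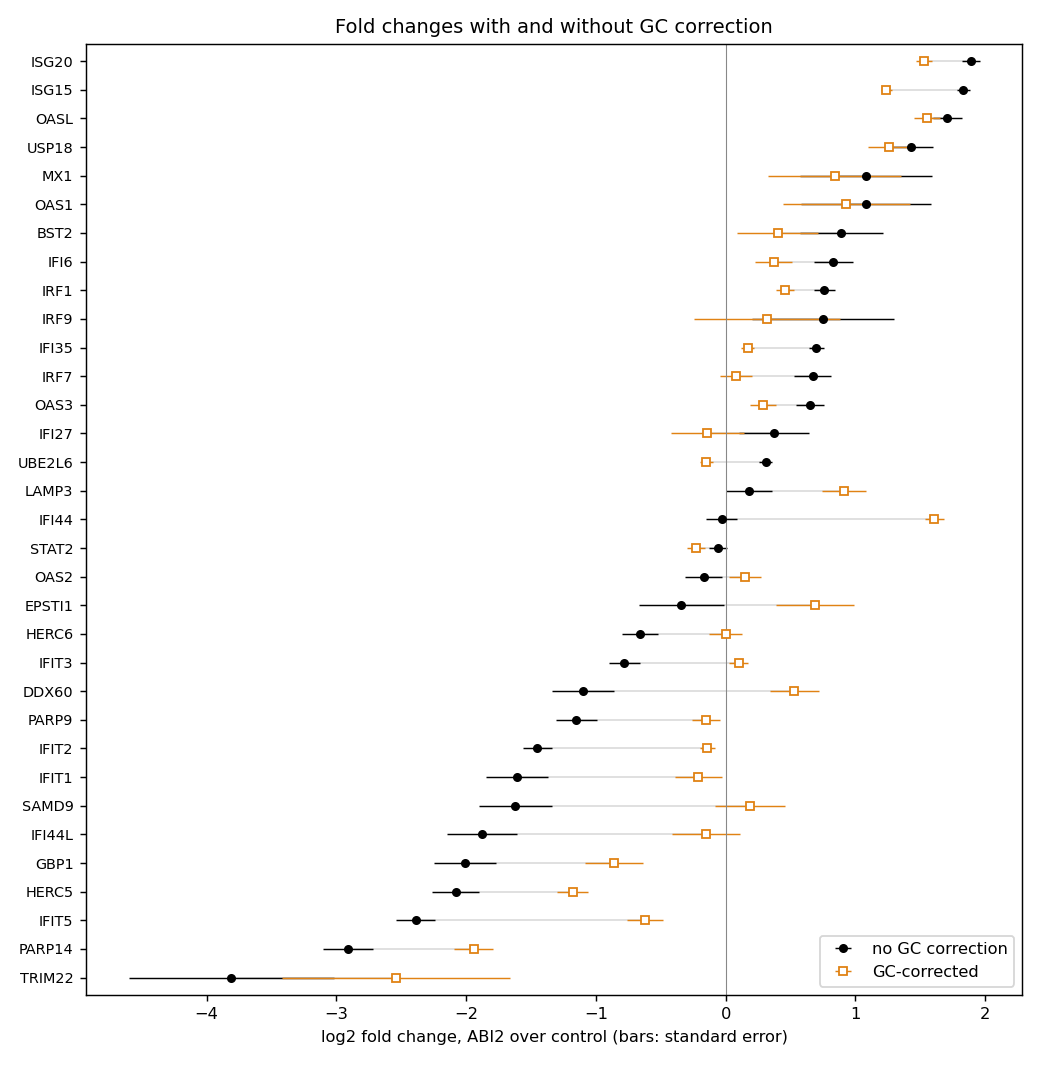
Log2 fold change of ABI2 over control (x axis, bars are standard errors) for the 33 tested members, without GC correction (filled circles) and with it (open squares). ISG20, ISG15, OASL and USP18 stay above 1 in both, PARP14 and HERC5 stay below -1 in both, and IFI44 lies at -0.03 without the correction and at 1.61 with it.

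The interferons themselves were almost without counts. IFNA1, IFNA2, IFNB1, IFNE, IFNK, IFNG and IFNL2 had no counts in any library. IFNL1, which encodes interferon lambda and was picked out after its values were seen, had 16, 11 and 4 counts in ABI2 libraries, against 0, 0 and 0 in control libraries. It was below the filter and chosen for this pattern, so no fold change or test is given. Low counts in the table were mostly even, so a count may not stand for a fragment of its own. Of the 6 tested genes in the list of interferons and receptors, 1 was higher and 2 lower, against 35.1% and 38.0% of all genes. With GC correction 1 was higher and 1 lower, against 28.6% and 22.6% of all genes in that fit. IFNAR1, a chain of the type I receptor, was at 10.2 ± 0.266 CPM in ABI2 libraries and 29.8 ± 0.629 CPM in control libraries. Its log2 fold change was -1.54 ± 0.08, and -0.30 ± 0.10 with GC correction (edgeR adjusted p = 0.0386). In its GC decile 77.2% of all genes were lower. IFNGR1 was at -1.38 ± 0.15, and at 0.11 ± 0.09 with GC correction, where it did not pass. IFNGR2, the other chain of the interferon gamma receptor, was at 0.62 ± 0.10. IL10RB, a chain of the interferon lambda receptor, did not pass, at 0.19 ± 0.22.

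Among 11 tested signal transducers outside the 40 genes, 6 were higher and 4 lower, against 35.1% of all genes higher and 38.0% lower. With GC correction 3 were higher and 4 lower, against 28.6% and 22.6% of all genes. The kinases JAK1, JAK2 and TBK1 fell, with log2 fold changes of -1.77 ± 0.12, -2.92 ± 0.23 and -2.33 ± 0.15. With GC correction these were -1.24 ± 0.07, -1.30 ± 0.25 and -0.70 ± 0.13. In their GC deciles 62.0% to 86.8% of all genes were lower. JAK2 had only 10, 9 and 14 counts in ABI2 libraries, against 88, 94 and 88 in control libraries. IKBKE, a relative of TBK1, rose by 0.65 ± 0.06, and did not pass with GC correction. Of 12 tested negative regulators, 6 were higher and 5 lower, and 5 and 2 with GC correction, beside the same shares of all genes in each fit. SOCS3, an inhibitor of JAK kinases, and IRF2BP1, a corepressor of IRF2, rose by 0.91 ± 0.08 and 0.82 ± 0.07. With GC correction they rose by 0.35 ± 0.06 and 0.24 ± 0.04. PIAS1, an inhibitor of STAT signalling, and the phosphatase PTPN11 had log2 fold changes of -2.54 ± 0.17 and -2.53 ± 0.14. With GC correction these were -2.30 ± 0.18 and -1.87 ± 0.09.

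Of 40 tested further interferon-induced genes outside the set, 16 were higher and 14 lower, near the 35.1% and 38.0% of all genes. With GC correction 11 were higher and 10 lower, against 28.6% and 22.6% of all genes. EIF2AK2, the kinase PKR, DDX58, the RNA sensor RIG-I, and the DNA sensor IFI16 had log2 fold changes of -1.82 ± 0.09, -3.10 ± 0.17 and -2.21 ± 0.14. With GC correction EIF2AK2 was at -0.15 ± 0.06 and did not pass, and DDX58 and IFI16 were at -1.59 ± 0.12 and -0.73 ± 0.09. LGALS3BP, a secreted glycoprotein, rose by 0.93 ± 0.06, and by 0.37 ± 0.05 with GC correction. Among 9 tested genes that respond mainly to interferon gamma, 2 were higher and 2 lower, against 35.1% and 38.0% of all genes. With GC correction these numbers were 0 and 2, against 28.6% and 22.6% of all genes. ICAM1, an adhesion molecule, and SECTM1 rose by 0.50 ± 0.05 and 0.72 ± 0.12, and the GTPases GBP2 and GBP3 had log2 fold changes of -1.59 ± 0.27 and -1.49 ± 0.24. ICAM1, SECTM1 and GBP3 did not pass with GC correction, and GBP2 was at -0.74 ± 0.21.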

How the data were processed

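The 6 libraries were measured by mRNA sequencing. The authors deposited 1 table with whole-number read counts, TPM and FPKM per gene and library, per the file headers. HISAT2 2.1.0, StringTie 1.3.3b, Trimmomatic and FastQC 0.11.2 are named, with the GRCh38 build, per the submitters' processing notes. Which annotation, counter and strand setting were used is not given in the sources used here. Of the deposited counts between 1 and 20, 67.2% were even, against 50.1% of 3-digit counts. 1 incomplete row was left out.

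The test of the counts was edgeR 4.0.16 under R 4.3.3 (TMM, filterByExpr at a minimum count of 10, robust quasi-likelihood F test, two-sided, Benjamini-Hochberg adjustment over 13325 tested genes, threshold 0.05). Each standard error is the size of the log2 fold change over the square root of F. CPM is per TMM-scaled library. Levels between genes are the deposited TPM, and the deposited FPKM gave the implied transcript length only. An exact permutation test of 3 libraries against 3 cannot go below 0.1 and was not used for calls. GC content is that of the GENCODE release 29 transcript whose coding sequence is longest. The GC-corrected fit used a natural spline with 5 degrees of freedom per library, over genes with mean log2 CPM above 0, as offsets. Alternatives used limma 3.58.1 on log2(TPM + 1) and log2(TPM + 0.1), and DESeq2 1.42.0. The procedure was run on simulated data with known changes, with and without a GC trend. Its outcome is not given here and is not used for any call. Groups and replicate numbers came from the sample titles.

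The members and lists were chosen with earlier results of these data known. Per-library values were given for members with an adjusted p below 0.05 and a log2 fold change of at least 1 in size, for members called in opposite directions with and without GC correction, and for the highest member by TPM in each role. Other members given per library, or at low counts, were chosen after their values were seen. From each list, up to 4 tested genes with the smallest p are named, with ABI2. 1 gene that this rule takes is not reported here.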

Additional observations from a re-analysis of the deposited data

How the results depend on the processing

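Of the 24 called members, ISG15, ISG20, OASL, USP18, IRF1, GBP1, HERC5, IFIT5 and PARP14 kept direction and call under all 15 alternatives. Under all alternatives without a GC term 22 kept them, among them TRIM22, which only the control libraries brought past the filter. The share of all genes that kept their call is not given here. BST2 lost its call with library sizes in place of TMM and on log2(TPM + 0.1), and OAS3 on both TPM scales. The median log2 fold change of all genes was -0.104 with library sizes alone and -0.129 on log2(TPM + 0.1), against -0.007.

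The largest moves came with GC correction, and the cause was not tested. With GC correction, with the replicate block as well, and with GC and length, 7, 5 and 8 members were lower, and 3008, 2743 and 2936 of all genes. With the block and GC, 7 members were higher, and the share of all genes higher in that fit is not given here. Reversed log2 fold changes under those fits, in that order, were 0.15, 0.15 and 0.08 for OAS2, 0.00, 0.01 and 0.03 for HERC6, -0.15, -0.16 and -0.32 for UBE2L6, -0.14, -0.14 and -0.31 for IFI27, 1.61, 1.61 and 1.35 for IFI44, 0.69, 0.66 and 0.62 for EPSTI1, 0.53, 0.51 and 0.67 for DDX60, and 0.19, 0.17 and 0.34 for SAMD9. IFIT3 was at 0.10 with GC correction and 0.11 with the block as well. IFI44 ranged from -0.11 to 0.08 when a library was left out, and was above 0 without ABI2 replicate 3 (0.04) and without control replicate 2 (0.08).

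In the lists, under the same 3 fits, 1, 1 and 0 of 6 tested interferons and receptors were lower. Of 12 tested negative regulators 2, 2 and 2 were lower, and of 9 tested interferon gamma genes 0, 0 and 0 were higher. Of 11 tested signal transducers 3 were higher with GC and 2 with the block as well, and 9 of 40 tested further interferon-induced genes were lower with GC and length. 1 interferon gamma gene was lower with the block and GC, and 1 with GC and length, while 1 was higher on each TPM scale. Without a filter, or with a library left out, IFNL1 can enter the fit through the ABI2 libraries alone. The numbers of interferons and receptors higher in those fits are therefore not given. With GC correction alone 28.6% of all genes were higher and 22.6% lower. Apart from the numbers lower given above, those of all genes in the other fits are not given here. These counts are therefore not read as a result about the lists.

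After the group mean of each gene was subtracted from log2 CPM, same-numbered ABI2 and control libraries correlated at 0.022, 0.018 and 0.061. Libraries with unlike numbers correlated at -0.048 to 0.025. Whether the replicate numbers mark a pairing was not tested. The replicate block alone left 11 members higher and 13 lower, with TRIM22 among the lower. The shares of all genes in that fit are not given here, so these counts are not read as a result about the members. Counts of 20 or fewer in some library limit MX1, OAS1, GBP1, IFI27, IFI44L, BST2, EPSTI1, SAMD9, TRIM22 and the 7 untested members. Such counts also limit JAK2, outside the set. Since low counts were mostly even, they may stand for fewer fragments than counts.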

Other observations

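Several induced genes outside the 40 are given as values, chosen after their values were seen. Among the RNA sensors of the RIG-I family, DHX58 was higher and DDX58 lower in both fits, and IFIH1 was lower without GC correction and did not pass with it, at -0.15 ± 0.12 on the log2 scale. DHX58, which encodes LGP2, had 531, 444 and 527 counts in ABI2 libraries and 197, 189 and 180 in control libraries, and rose by 1.5 ± 0.11 on the log2 scale (edgeR adjusted p = 2.91e-05). DDX58 was at 8.6 ± 0.706 CPM in ABI2 libraries and 73.6 ± 15.5 CPM in control libraries, and IFIH1, which encodes MDA5, at 3.43 ± 0.398 CPM in ABI2 libraries and 7.99 ± 0.634 CPM in control libraries (SD, n = 3 each). Transcript GC was 58.2% for DHX58, 40.5% for DDX58 and 43.3% for IFIH1.

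RTP4, an interferon-induced receptor transporter, was higher in ABI2 cells at a low transcript GC of 44.9%. It had 65, 56 and 75 counts in ABI2 libraries and 24, 24 and 29 in control libraries, and rose by 1.44 ± 0.22 on the log2 scale (edgeR adjusted p = 0.000724). RNF213, a large ubiquitin ligase with a GC of 52.6%, was lower, at 136 ± 10.5 CPM in ABI2 libraries and 210 ± 13.1 CPM in control libraries (SD, n = 3 each; edgeR adjusted p = 0.000237).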
